A study of Mus musculus with 8 samples.

Results

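The array carried 1217 probes whose names assign them to long intergenic noncoding RNA (lincRNA) loci of the human genome, among 59709 probes that are no controls. Every probe with a name starting humanlincRNA was taken. A sign in the name gives the strand. There were 609 loci, and 608 had a plus and a minus probe. For humanlincRNA2126 only the minus probe was present. The files give these probes neither a sequence, a position nor a gene name, and they do not say how the human loci were placed on the mouse genome.

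LincRNAs are transcripts without a long open reading frame that arise between protein-coding genes. They are generally less abundant and more tissue-restricted than messenger RNAs, and some act in the nucleus on chromatin or on the transcription of neighbouring genes. Their sequence is often poorly conserved between mammals even where the position of the locus is shared. In the heart, lincRNAs have been linked to cardiomyocyte differentiation and to the response to overload. A pair of probes, with 1 for each strand of a locus, allows signal to be followed even where the transcribed strand is not known.

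The study compared the hearts of mice with and without cardiomyocyte Klf5, which encodes a zinc-finger factor of the Kruppel-like family. The control group held 4 male Klf5 floxed mice, which lacked Cre, and the knockout group held 4 male aMHC-KLF5-/- mice, in which the alpha myosin heavy chain promoter directs the deletion to cardiomyocytes. All mice were 8 to 12 weeks old and were studied under basal conditions, and each array held whole-heart RNA. Since the controls lacked Cre, deletion and transgene cannot be told apart, and the promoter does not target the other cells of the heart. The labels number the hearts 1 to 4 in each group and say no more of their source, so p-values measure the spread between these samples, which may be technical in part. In whole-heart RNA, fewer cells of a type and less RNA per cell cannot be told apart either. Of 23 fixed marker genes of heart cell types 0 were named by the files, and neither was Klf5, so tissue and deletion were not checked here. All 8 arrays had 1 scan time. No array of a group shared the first part of its position code with an array of the other group, so position and genotype cannot be told apart.

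Signal from these probes was sparse on each array, although 491 of the 608 strand pairs (80.8%) had a probe detected on at least 1 array. This count uses the detection limit of each array, and the limits differed between arrays. A probe was taken as detected on an array when the scanner software flagged it as well above background. In control hearts 264, 275, 304 and 297 of the 1217 probes were detected, a mean of 285 ± 18.7 (SD, n = 4). In knockout hearts 391, 554, 458 and 277 were detected, a mean of 420 ± 116.5 (SD, n = 4). Knockout replicates 1, 2 and 3 thus lay above every control array, while replicate 4 lay among them. The shares were 21.7% to 25% of the probes in controls and 22.8% to 45.5% in knockout hearts, against 46.6% to 52.7% and 47.1% to 72.5% over the whole array.

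The 4 arrays with the most detected probes were those with the narrowest spread of negative controls. That spread, as the scanner software reports it, was 22.4, 11.5 and 18.7 intensity units on knockout arrays 1, 2 and 3. It was 27.5 to 42.9 on the control arrays and 45.6 on knockout array 4. When the highest of the 8 detection limits was applied to every array, 264, 243, 244 and 274 probes were above it in controls, a mean of 256.2 ± 15.3 (SD, n = 4). The numbers in knockout hearts were then 269, 252, 260 and 275, a mean of 264 ± 10.1 (SD, n = 4). At this common limit the groups overlapped. The difference of the means went from 135 probes at each array's own limit to 7.75. At the common limit 780 of the 1217 probes were above it on no array, against 523 at own limits. The strand pairs were not counted at the common limit.

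**Figure D1:**
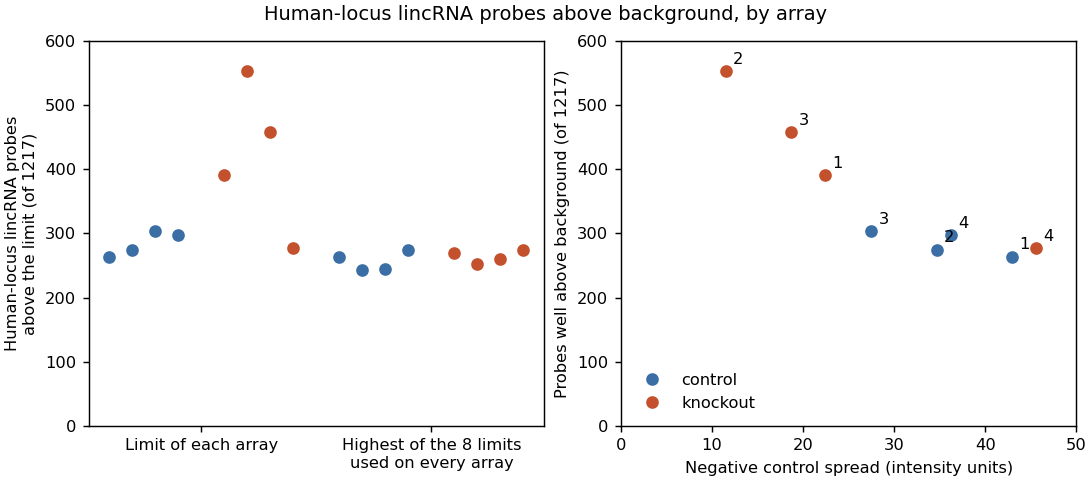
Number of human-locus lincRNA probes above the detection limit on each array (points, 4 control and 4 knockout hearts). Left, with the limit of each array and with the highest limit used on every array. Right, the number at each array's own limit against the spread of the negative controls, with replicate numbers. Knockout replicates 1, 2 and 3 have 391, 554 and 458 probes at the lowest spreads, and the groups overlap at the common limit.

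Over all 8 arrays, 198 of the 1217 probes (16.3%) were detected on every array, 523 (43%) on none and 496 (40.8%) on some. On the whole array 40.8% of probes were detected on every array and 21.4% on none. The mouse-locus lincRNA probes were close to the human-locus ones, with 17.1% of 691 detected on every array. Among lincRNA exon probes the share was 29.2% of 3457. These shares were not tested against each other.

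Detection on every array was mostly limited to 1 strand of a locus. Of the 608 pairs, 94 had the plus probe but not the minus probe on all 8 arrays, 62 the minus probe but not the plus probe, and 21 had both. Among these 177 pairs the partner of a probe detected on every array was detected on none in 83, on some arrays in 73 and on all in 21, so 94 of them gave signal from both strands on at least 1 array. Both probes were undetected throughout at 117 pairs. Detection on every array was thus shared by both strands at 11.9% of the 177 loci that had it on at least 1 strand. That share was 10.4% for mouse-locus pairs and 13.9% for lincRNA exon pairs. By strand, 115 of 608 plus probes (18.9%) and 83 of 609 minus probes (13.6%) were detected on every array.

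None of the 8 probes with the strongest signal was called between genotypes. Levels are given as log2 of the processed signal after subtraction of the 75th percentile of each array, so that 0 is that percentile. Among the 198 probes detected on every array the mean level ran from -2.14 to 4.64, and 58 of them lay above 0. Signal also depends on the sequence of a probe, so no order is drawn between probes.

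For humanlincRNA2296+ the levels were 4.59, 4.63, 4.37 and 4.80 in controls and 4.40, 4.61, 4.72 and 4.97 in knockout hearts. The partner humanlincRNA2296- was detected on 0 of the 8 arrays. For humanlincRNA2163- the levels were 4.51, 4.70, 4.55 and 4.29 in controls and 4.18, 4.33, 4.60 and 4.79 in knockout hearts. The groups overlapped in both cases. Both strands of this second locus were present, since humanlincRNA2163+ had means of 1.26 ± 0.12 and 1.33 ± 0.22 (SD, n = 4 each). The groups also overlapped for humanlincRNA0847-, with 4.08 ± 0.29 in controls and 4.20 ± 0.31 in knockout hearts, and for humanlincRNA2330+, with 3.80 ± 0.20 and 4.10 ± 0.34 (SD, n = 4 each). The other strand of humanlincRNA2330 was detected on 0 arrays. For humanlincRNA1773+ and humanlincRNA0318- the group means were 3.47 and 3.55, and 3.22 and 3.60. HumanlincRNA2438+ is described below with the probes that had lower values, and humanlincRNA2199+ with those that varied between hearts.

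No lincRNA probe of the human loci was called between knockout and control hearts. A probe was tested when all usable arrays of either group detected it, which held for 253 of the 1217 probes, at 215 loci. In the limma fit over all 27878 tested probes, 0 of the 253 passed an adjusted p under 0.05, and 0.14% of all tested probes did. The lowest adjusted p among them was 0.174 in limma. At an unadjusted p under 0.05, limma gave 25 with higher and 3 with lower values in knockout hearts, or 9.88% and 1.19%. Over all tested probes the shares were 5.37% higher and 2.69% lower. With normexp background correction the split was 12 and 4, and with median centring 10 and 5. The shares with higher values were then 4.74% against 4.12% over the array, and 3.95% against 3.33%. They were 7.11% against 4.96% with quantile normalization, 10.7% against 6.01% with the replicate block and 4.68% against 4.49% without a filter on signal. The median log2 fold changes of the members and the array were 0.12 and 0 in the main setting. They were 0.04 and 0 with normexp, and 0.06 and -0.06 with median centring. By strand in the main setting, 12 of 138 tested plus probes had higher (8.7%) and 2 lower values (1.45%). Of 115 tested minus probes, 13 had higher (11.3%) and 1 lower values (0.87%).

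A probe that passed the filter through 1 group only was chosen by its values in that group, so probes detected on every array are given apart. Of the 198 such probes, 12 had higher and 2 had lower values at an unadjusted p under 0.05 in limma. The shares among all 24341 probes of that kind were 3.53% and 2.58%. The median log2 fold change, knockout minus control, was 0.10 for the 198 and -0.01 for the 24341. Of the 198, 139 were above 0 (70.2%), against 48.2% of the 24341. A further 55 tested probes comprised 45 detected on all 4 knockout arrays and some control arrays and 5 on all 4 knockout arrays and no control array. The remaining ones were 4 detected on all 4 control arrays and 3 knockout arrays, and 1 with an outlier-flagged spot. Of these 55, 46 had a log2 fold change above 0 and 9 below. The filter bears on their direction, and their median of 0.37 supports nothing.

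**Figure D2:**
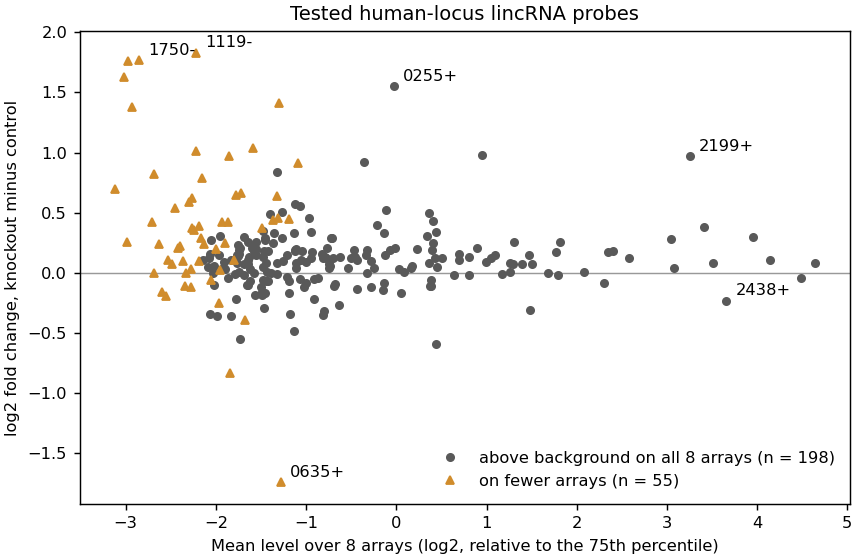
Log2 fold change, knockout minus control, against the mean level over the 8 arrays for the 253 tested human-locus lincRNA probes. Circles are the 198 probes detected on every array and triangles the 55 detected on fewer. Most circles lie within 0.25 of 0 (148 of 198), and most of the large positive values are triangles at the dim end.

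Among probes detected on every array, those of smallest p with higher values in knockout hearts differed by small amounts. For humanlincRNA1883+ the levels were -1.79, -1.26, -1.54 and -1.49 in controls and -1.12, -1.07, -0.62 and -1.24 in knockout hearts. The groups did not overlap, as in 4.09% of all tested probes in this direction. The log2 fold change was 0.51 (SE 0.17, limma adjusted p = 0.52). For humanlincRNA1739+ the levels were -0.83, -0.87, -0.79 and -0.98 in controls and -0.63, -0.60, -0.38 and -0.68 in knockout hearts. Again every knockout heart lay above every control heart, with a log2 fold change of 0.29 (SE 0.10, limma adjusted p = 0.533). For humanlincRNA1527+ the controls lay between -1.72 and -1.62 and the knockout hearts between -1.51 and -1.27, a difference of 0.26 in log2. HumanlincRNA0220+, humanlincRNA0297- and humanlincRNA2217+ likewise did not overlap between groups, with log2 fold changes of 0.33, 0.30 and 0.46. For humanlincRNA2217+ control replicate 1 was at -1.72 and the other controls at -1.17 to -0.92. HumanlincRNA1828+ had a log2 fold change of 0.35 with overlapping groups. In all, the groups did not overlap, with the knockout hearts higher, for 18 of the 253 probes (7.11%). Among the 198 detected on every array it was 9 (4.55%), against 2.68% of all probes of that kind. The partner probes of humanlincRNA0220+, humanlincRNA1739+, humanlincRNA0297- and humanlincRNA2217+ were detected on 0 arrays. The partner humanlincRNA1527- was detected on 7 arrays, with overlapping groups.

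Lower values in knockout hearts were fewer. For humanlincRNA2438+ the levels were 3.82, 3.84, 3.69 and 3.77 in controls and 3.55, 3.59, 3.50 and 3.55 in knockout hearts. All 4 knockout hearts lay below all 4 controls. The difference was small, a log2 fold change of -0.23 (SE 0.08, limma adjusted p = 0.533), against SDs of 0.07 and 0.04 within the groups. It lay between -0.29 and -0.20 over the alternatives, with limma adjusted p from 0.422 to 0.702. In this direction the groups did not overlap for 2 of the 253 probes (0.791%), against 1.66% of all tested probes, and the other was humanlincRNA0635+. For humanlincRNA1098- the controls were -0.66, -0.71, -0.72 and -0.46 and the knockout hearts -1.08, -1.13, -1.03 and -0.60. Knockout replicate 4 lay within the range of the controls, and the log2 fold change was -0.32 (SE 0.14, limma adjusted p = 0.614). The groups overlapped for the other 6 of the lower probes named by the rule. These were humanlincRNA1016+ (-0.31), humanlincRNA2264+ (-0.55), humanlincRNA0522+ (-0.27), humanlincRNA1396+ (-0.59), humanlincRNA2387+ (-0.17) and humanlincRNA1747+ (-0.22), with the log2 fold change of each in brackets.

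**Figure D3:**
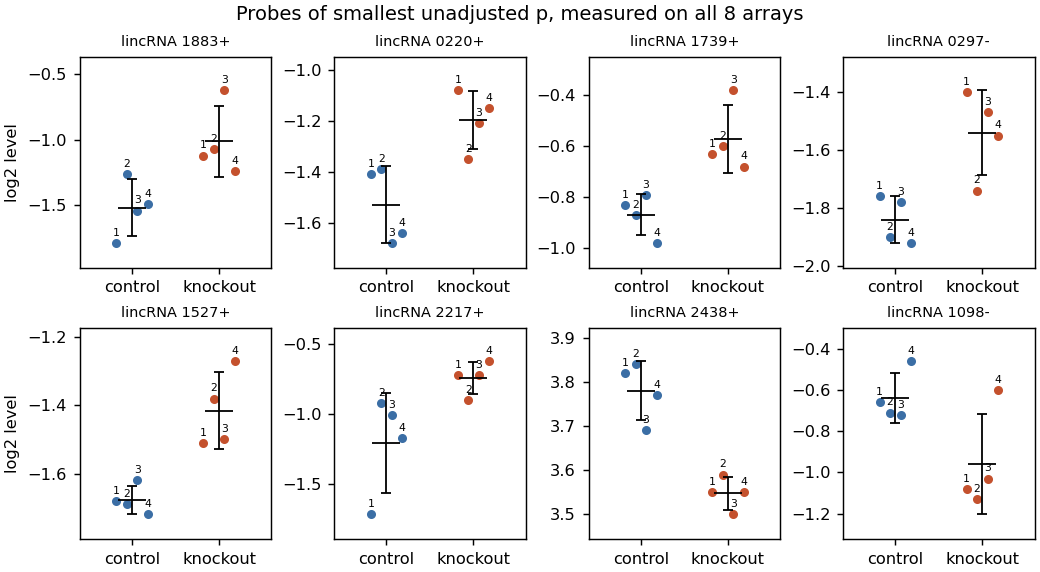
Levels (log2, with the array's 75th percentile at 0) of 8 human-locus lincRNA probes detected on every array. They were those of smallest unadjusted p within each direction. HumanlincRNA2438+ and humanlincRNA1098- had lower values in knockout hearts, and the others had higher values. Points are hearts with their replicate numbers, and the cross-bar and whiskers give the mean and SD of 4. HumanlincRNA2438+ runs from 3.69 to 3.84 in controls and from 3.50 to 3.59 in knockout hearts, and 0 of the 8 passed adjustment over the array.

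The 4 largest positive log2 fold changes all belonged to probes that were below the detection limit in most control hearts. Detection on all 4 knockout arrays and no control array was seen for 5 of the 1217 probes (0.411%), a share near the 0.327% over the whole array, and the reverse for 0. All 5 were minus probes. Their folds are lower bounds, taken against the higher of each control array's detection limit and the probe's own value. HumanlincRNA1750- was at -4.57, -2.97, -3.21 and -4.19 in controls and at -2.07, -1.91, -2.07 and -1.79 in knockout hearts. That is at least 1.47-fold higher. The limma adjusted p of 0.174 belongs to the values as measured, whose log2 fold change was 1.77, and not to this bound. The value -4.57 is the lowest signal that control array 1 reports for any probe. HumanlincRNA1779- was at least 1.25-fold higher, humanlincRNA1576- at least 1.21-fold and humanlincRNA0955- at least 1.01-fold. On the values as measured, their limma adjusted p was 0.2, 0.416 and 0.471. HumanlincRNA1178- had no bound above 1. With dim values set to the detection limit of the array they came from, the log2 fold changes of these 5 probes were 0.56, 0.32, 0.28, 0.02 and -0.25 in the same order. Their limma adjusted p was then 0.313, 0.771, 0.799, 0.979 and 0.86. All 5 passed the filter only through the knockout hearts, so none of these p-values is support for a difference. Of the partner probes, humanlincRNA0955+ was detected on all 8 arrays with overlapping groups, humanlincRNA1576+ on 1 knockout array, and the others on none.

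At the highest detection limit, applied to every array, 3 of the 1217 probes (0.247%) were above it on all 4 knockout arrays and no control array, against 0.161% over the whole array. These were humanlincRNA1119-, humanlincRNA1750- and humanlincRNA2099-, and humanlincRNA2099- was named after its values were seen. At that limit 75 probes (6.16%) were above it in at least 1 knockout heart and no control heart, and 83 (6.82%) in at least 1 control heart and no knockout heart. The shares over the whole array were 4.9% and 5.8%. HumanlincRNA1119- was at -2.43, -2.62, -4.79 and -2.70 in controls, where only replicate 2 was well above background, and at -1.28, -1.42, -1.57 and -0.95 in knockout hearts. The groups did not overlap, and the log2 fold change was 1.83 (SE 0.50, limma adjusted p = 0.402), which is uncertain in size. With dim values set to the detection limit it was 1.21 (limma adjusted p = 0.0502), and with normexp background correction it was 0.82. HumanlincRNA2099- was at -2.58, -2.45, -2.59 and -2.78 in controls, 2 of them well above background, and at -2.06, -1.86, -2.21 and -1.89 in knockout hearts. Its log2 fold change was 0.59 (SE 0.12, limma adjusted p = 0.18), and 0.42 with dim values set to the limit. Both probes are listed here for their pattern at the common limit and passed the filter only through the knockout hearts. Neither the lack of overlap nor any of these p-values is therefore support for a difference.

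Large negative values were rare and rested on some hearts. HumanlincRNA0635+, named after its values were seen, was at -0.60, -0.18, -0.48 and -0.36 in controls. In knockout hearts it was at -1.17, -3.51, -0.80 and -3.10, so replicates 2 and 4 lay far below replicates 1 and 3. The log2 fold change was -1.74 (SE 0.59, limma adjusted p = 0.537). Besides this probe, 3 were detected on all 4 control arrays and 3 knockout arrays: humanlincRNA0933+, humanlincRNA1153+ and humanlincRNA2355-, also named after their values were seen, with log2 fold changes of -0.39, -0.12 and 0.02. HumanlincRNA0212- was not tested on all 8 arrays, because control replicate 1 was at -4.57, the lowest signal of its array. The other controls were at -1.04, -0.74 and -0.97, and the knockout hearts at -3.38, -3.53, -3.66 and -2.70, with 2 of the 4 well above background. Without control replicate 1 it entered the fit and was called, with a log2 fold change of -2.40 (SE 0.23, limma adjusted p = 0.012). It then passed the filter only through the group where it was high, and the array left out is the one against the direction, so the call is no support for a difference. With that array the knockout hearts lay within the range of the controls. The partner humanlincRNA0212+ was detected on all 8 arrays and had a log2 fold change of 0.05 (SE 0.16) in the fit on all arrays.

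The small positive median among the 198 probes lay largely in 1 knockout heart. Each probe's value was set against its own mean over the 8 arrays. The median of these deviations was 0.21 on knockout array 4, and it lay between -0.06 and 0.03 on the other 7 arrays. For all 24341 probes detected on every array it was 0.03 on knockout array 4. The highest of the 8 values fell on that array for 91 of the 198 probes (46%) and for 22.1% of probes on the whole array. Without knockout replicate 4, the median log2 fold change of the same 198 probes was 0.04, with 117 above 0. That of the 24341 probes was then -0.01, and their share above 0 was not taken. Leaving out any other array gave 0.09 to 0.13 for the 198. The positive median was present both in the 58 probes with a mean level above 0 (0.09) and in the 140 below it (0.10). Knockout array 4 was also the array with the largest negative control spread, and the part of that in the shift was not tested.

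**Figure D4:**
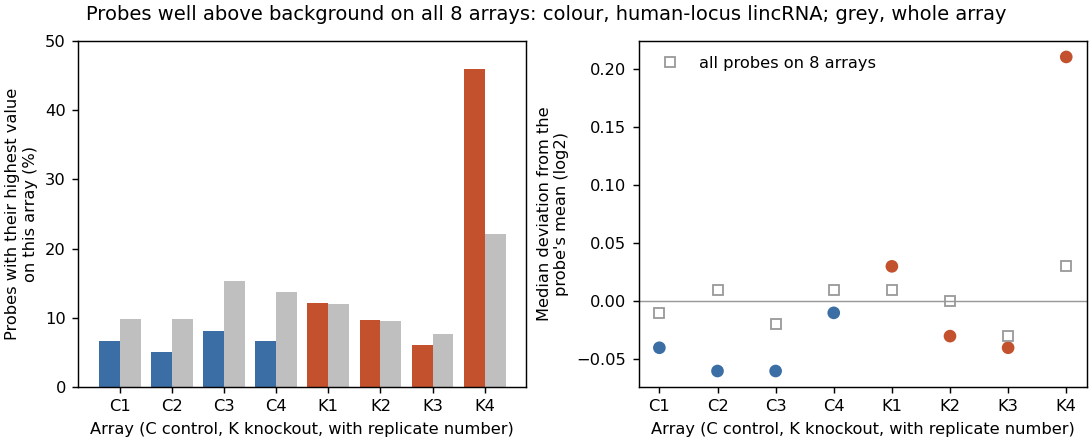
Left, share of probes detected on every array that had their highest value on the array named (bars, coloured for the 198 human-locus lincRNA probes and grey for the whole array). Right, median deviation of each array from the probes' own means, in log2 (circles for the 198, squares for the whole array). Knockout replicate 4 stands apart with 46% and 0.21.

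Some lincRNA probes differed by over 2 log2 units between hearts of the same genotype. Over the 198 probes the median SD was 0.20 among controls and 0.20 among knockout hearts, against 0.18 and 0.19 over the whole array. It exceeded 0.5 for 22 of them in controls (11.1%) and 10 in knockout hearts (5.05%), against 10.1% and 8.63% over the whole array. HumanlincRNA1907+ was at 0.52, -2.26, -2.26 and -0.06 in controls and at -1.90, -1.87, -2.13 and 0.48 in knockout hearts. It was thus high in control replicates 1 and 4 and knockout replicate 4 and low elsewhere, and its partner was detected on 0 arrays. HumanlincRNA1612+ was at -0.61, -1.76, 1.24 and -1.61 in controls and at -0.12, -1.48, -1.68 and 1.07 in knockout hearts. Here control replicate 3 and knockout replicate 4 were high. These patterns crossed the genotypes and differed from each other.

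HumanlincRNA0255+ followed genotype in 7 of the 8 hearts. It was at -1.03, -1.20, -0.85 and -0.14 in controls and at -1.23, 1.33, 1.39 and 1.48 in knockout hearts. Knockout replicate 1 lay with the controls. The log2 fold change was 1.55 (SE 0.61, limma adjusted p = 0.575), the largest among probes detected on every array. Without knockout replicate 1 it was 2.21 (SE 0.25) and was called (limma adjusted p = 0.034), so this heart, the one against the direction, decides the call. Over the alternatives the limma adjusted p ran from 0.034 to 0.77. The partner humanlincRNA0255- had means of -2.69 in each group, with 1 control array and all 4 knockout arrays well above background.

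Control replicate 1 was low at other probes. HumanlincRNA2199+ was at 0.40 there and at 3.60, 3.29 and 3.75 in the other controls, with 3.34, 3.72, 3.76 and 4.12 in knockout hearts. HumanlincRNA2397- was at -1.55 there and at 1.27, 1.12 and 0.98 in the other controls, with 1.54, 1.31, 1.19 and 1.71 in knockout hearts. The other strand of each locus did not share the low value. HumanlincRNA2199- was at -1.12 on that array, against -1.85 to -1.13 in the other controls, and humanlincRNA2397+ was at 1.65, against 1.67 to 1.75. High values on 1 array also occurred. HumanlincRNA2410- was at -0.12 in knockout replicate 4 and at -1.60, -1.73 and -1.80 in the other knockout hearts. HumanlincRNA0847+ was at 3.15 in knockout replicate 1, a processed signal of 2690, and at -2.58 to -1.46 in the other 7 hearts, with signals of 52 to 127. Its partner humanlincRNA0847- had no such value in that heart, at 3.88. None of these values came from a spot with an outlier flag.

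**Figure D5:**
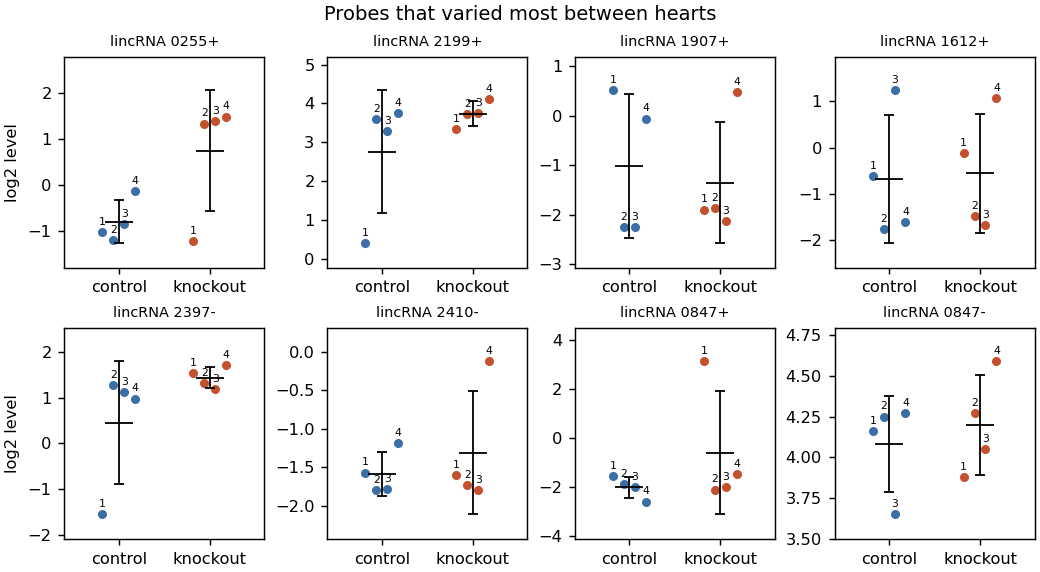
Levels (log2, with the array's 75th percentile at 0) of human-locus lincRNA probes that varied most between hearts, and of both strands of humanlincRNA0847. Points are hearts with their replicate numbers, and the cross-bar and whiskers give the mean and SD of 4. HumanlincRNA0255+ is between 1.33 and 1.48 in knockout replicates 2, 3 and 4 and at -1.23 in replicate 1.

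Whether the strands of a locus differed in their change between genotypes was tested within each array, which does not depend on scaling between arrays. Both probes passed the filter at 38 human-locus pairs, among 245 pairs on the whole array. None of the 38 was called by limma with adjustment over the 245, and 2 had an unadjusted p under 0.05 (5.26%). Over all pairs 1.63% were called, and 9.8% had an unadjusted p under 0.05. In 26 of the 38 pairs both strands had log2 fold changes of the same sign, 22 above 0 and 4 below. Only 21 of the 38 had both probes detected on every array, and in the others the filter bears on the sign. The share over the 245 pairs was not taken, so nothing is read from this count. The absolute difference in change between the strands was under 0.5 in 27 pairs, with a median of 0.22.

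The smallest p was at humanlincRNA1119, where the plus probe had a log2 fold change of 0.17 and the minus probe 1.83. The plus probe was detected on all 8 arrays, at 2.22 to 2.34 in controls and 2.31 to 2.69 in knockout hearts. The difference in change, plus minus minus, was -1.66 (SE 0.49, limma adjusted p = 0.295). It was -1.04 with dim values set to the limit (limma adjusted p = 0.0156) and -1.10 without control replicate 3 (limma adjusted p = 0.0283), and under both the pair was called. The minus probe passed the filter only through the knockout hearts, the group where it was high, so these calls are no support for a difference. Control replicate 3 holds the value of -4.79 in the minus probe. At humanlincRNA0255 the difference was 1.54 (SE 0.55, limma adjusted p = 0.354), and 2.10 without knockout replicate 1 (limma adjusted p = 0.033). The minus probe of humanlincRNA0255 passed the filter only through the knockout hearts. The heart left out is the one against the direction, so this call is no support for a difference. Without control replicate 1, humanlincRNA0212 entered the pairs and was called at 2.50 (limma adjusted p = 0.00781). As for humanlincRNA0212- alone, this call is no support for a difference. At humanlincRNA1812 and humanlincRNA1396 the differences were 1.05 and -0.72, and neither passed. The spread at humanlincRNA1396+ came from control replicate 1, at 1.83 against 0.01 to 0.63 in the other controls. At humanlincRNA1812+ the controls were spread from -2.84 to -0.57, and the knockout hearts from -0.85 to -0.31.

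The human-locus probes are set beside the other lincRNA classes. Of 156 tested mouse-locus lincRNA probes, 17 (10.9%) had higher and 1 (0.641%) had lower values in knockout hearts at an unadjusted p under 0.05 in limma, and 0 were called. Of 1234 tested lincRNA exon probes, 80 (6.48%) had higher and 61 (4.94%) lower values, and 1 was called. Over all tested probes of the array the shares were 5.37% and 2.69%. These shares include probes that passed the filter through 1 group only. Detected on every array were 118 mouse-locus and 1011 exon probes. The difference between the human-locus probes and these classes was not tested.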

How the data were processed

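Total RNA of 8 hearts was depleted of ribosomal RNA, amplified with random priming, labelled with Cy3 and hybridised to 1-colour arrays, per the labels' protocols. The deposited files hold spot intensity from Agilent Feature Extraction 11.0.1.1, with background subtracted and no scaling between arrays, per the file headers, which name build mm9. The authors' value table is on a log2 scale by its deposited values, the sources used here do not give its normalization, and it holds 0 of these probes, so it was not used.

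From log2 of the processed intensity, each array's own 75th percentile, taken over probes that are no controls, was subtracted. Spots with an outlier flag and probes named as negative controls were left out. The test was that of limma (version 3.58.1, R version 4.3.3), Benjamini-Hochberg adjusted over all tested probes at 0.05, with at least 3 usable arrays per group. Differences are knockout minus control. Alternatives were normexp (offset 50, on median spot signal), other scalings, filters and variances, the replicate block, a common detection limit and leaving out each array. The fit was tested on simulated data. The number of arrays limits precision.

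Named probes follow a rule: any called, the 8 of smallest p per direction and the 8 of highest level among those detected on every array, those detected in 1 group only (up to 6), the 4 of largest SD per group, the 4 strand pairs of smallest p, and their partner strands. Members, rule and alternatives were chosen with earlier results of these data known.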

Additional observations from a re-analysis of the deposited data

Results flagged for a closer look

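The groups of 4 hearts looked at numbered 90, mostly of measured probe values but also of the numbers of detected probes per array. In 10 of them, all of probe values, 1 heart lay far from the other 3 for the range of the group. Chance gives about 1 in 20, or 4.5. The 10 cannot be read against chance, since 8 of the groups were chosen for their large SD and 5 of the 10 are among them. In knockout replicate 1, humanlincRNA0255+ was at -1.23, where its group otherwise had 1.33 to 1.48, and humanlincRNA0847+ was at 3.15, against -2.09 to -1.46. HumanlincRNA2199+ was at 0.40 in control replicate 1, against 3.29 to 3.75, and humanlincRNA2397- was at -1.55 there, against 0.98 to 1.27. In knockout replicate 4, humanlincRNA1907+ was at 0.48 against -2.13 to -1.87, humanlincRNA2410- at -0.12 against -1.80 to -1.60, humanlincRNA1527- at -0.66 against -1.09 to -1.06, and humanlincRNA1773+ at 3.89 against 3.39 to 3.47. In control replicate 3, humanlincRNA1773+ was at 3.25 against 3.52 to 3.56, and humanlincRNA2163+ at 1.09 against 1.30 to 1.33.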

How the results depend on the processing

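No human-locus lincRNA probe was called under any alternative that kept all 8 arrays, and the number ran from 0 to 1 when 1 array was left out, with humanlincRNA0212- called without control replicate 1 and humanlincRNA0255+ without knockout replicate 1. Probes with higher values at an unadjusted p under 0.05 in limma numbered 25 in the main setting (9.88%, against 5.37% over the array). They numbered 12 with normexp (4.74% against 4.12%), 10 with median centring (3.95% against 3.33%) and 15 with trended and robust variances (5.93% against 4.76%). There were 12 with only probes on all 8 arrays, where fewer were tested (6.06% against 3.91%), and 57 without a filter on signal (4.68% against 4.49%). Quantile normalization gave 18 (7.11% against 4.96%) and dim values set to the limit 19 (7.51% against 5.01%). Array weights gave 20 (7.91% against 5.44%), the replicate block 27 (10.7% against 6.01%) and the 75th percentile of detected probes 30 (11.9% against 6.97%). Probes with higher values ran from 21 to 29 when 1 array was left out, or 8.17% to 9.88%, against 4.52% to 5.64% over the array. Those with lower values, 3 in the main setting, numbered 5 with median centring, with array weights and with the replicate block, 49 without the filter, and 2 to 6 when 1 array was left out, with 6 without control replicate 3 and 5 without control replicate 4. Strand pairs called numbered 1 with dim values set to the detection limit and 0 to 1 when 1 array was left out. Pairs at an unadjusted p under 0.05, 2 in the main setting, numbered 76 without the filter, 0 with only probes on all 8 arrays, and 1 to 4 when 1 array was left out (4 without control replicate 4, 1 without knockout replicate 2 or 3). For the lower values and the pairs, the shares over the array were not taken under the alternatives. Nothing is read from those counts.

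The median log2 fold change of the tested probes, 0.12, was -0.25 without the filter, which brings in 964 further probes that are mostly dim. It was 0.04 with normexp, and 0.10 to 0.15 when 1 array was left out. The tested probes changed with the array left out, and were 337 without knockout replicate 4. For the fixed 198 probes detected on every array, the median was 0.04 without that array and 0.10 with all arrays. The difference in mean number detected, 135, was 7.75 at the common detection limit, a setting chosen after seeing the data, and 90.3 to 182.7 when 1 array was left out. For humanlincRNA0255-, whose log2 fold change was 0.00, the sign turned with normexp (-0.09), quantile normalization (-0.10), median centring (-0.06), dim values set to the detection limit (-0.24) and array weights (-0.02), and it ran from -0.21 to 0.11 when 1 array was left out. HumanlincRNA1178- turned to -0.25 with dim values set to the detection limit. Where no cause is given, the cause was not tested.

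With the replicate block 0 probes were called, and at an unadjusted p under 0.05 there were 27 higher and 5 lower. Same-numbered arrays had deviations correlated at 0.06, -0.05, 0.36 and 0.24, and control replicate 2 did not correlate best with its own number, so the numbers were not taken as pairs, although each equals the second part of its array's position code. The authors' value table gave no value, since it holds none of these probes. Signal near background limits any statement on the 964 probes not tested.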
